A study of Mus musculus with 18 samples.

Results

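The receptors through which macrophages sense extracellular nucleotides and adenosine were followed in bone marrow-derived macrophages (BMDMs). The set held 10 of the 20615 genes of the table, taken by symbol: the ion channels *P2rx4* and *P2rx7*, the nucleotide receptors *P2ry2*, *P2ry6*, *P2ry12*, *P2ry13* and *P2ry14*, and the adenosine receptors *Adora2a*, *Adora2b* and *Adora3*. All 10 passed the filter on low counts, as did 15789 genes in all. The study asked how macrophages of a mouse model of Sjögren's syndrome respond to apoptotic cells. RNA was sequenced from BMDMs of C57BL/6 (B6) mice and of C57BL/6.NOD-Aec1Aec2 mice (here SjSS), a congenic line in which the *Idd3* and *Idd5* intervals of NOD mice were bred onto B6. For each strain there were 3 untreated control samples, 3 samples given apoptotic cells (AC) and 3 given CpG, an oligodeoxynucleotide that activates an endosomal Toll-like receptor. AC samples received dexamethasone-killed thymocytes at 5 per BMDM for 2 h, were washed, and were collected 3 h later according to the labels, whereas the methods text gives a longer wait. CpG samples received 1 µM for 6 h. All cells came from female mice of 7 to 12 weeks and were grown in L929 supernatant as the source of M-CSF. BMDMs were cultured from 3 mice of each strain, so samples of the same strain under different treatments may share a mouse. Which samples share one, and which strain's thymocytes each AC sample received, is not given in the sources used here, and an effect of the thymocytes' strain and one of the macrophages' strain cannot be told apart. P-values measure the spread between these samples and take them as independent.

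As background, dying and activated cells release ATP, UTP, ADP and UDP-sugars, which act as "find-me" signals for phagocytes. P2X receptors are ATP-gated cation channels, and P2X7 at high ATP drives potassium efflux and NLRP3 inflammasome assembly. P2Y receptors couple to G proteins. P2Y2 (ATP and UTP) and P2Y6 (UDP) signal through Gq, while P2Y12 and P2Y13 (ADP) and P2Y14 (UDP-glucose) signal through Gi. Ectonucleotidases such as CD39 and CD73 turn ATP into adenosine. The adenosine receptors encoded by *Adora2a* and *Adora2b* raise cAMP through Gs and restrain macrophage activation, and the one encoded by *Adora3* couples to Gi.

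Total estimated counts ran from 30688288 to 57139640 per sample, of which 22515 to 43549 lay on the 10 receptors. All 8 macrophage markers checked, among them *Adgre1* and *Csf1r*, were expressed, and their summed level ran from 15105 to 23748 CPM (estimated counts scaled to a library of 1000000, with TMM factors) over the 18 samples. The 14 thymocyte and T cell markers summed to 8.47 to 10.8 CPM in control B6 and 5.20 to 6.20 CPM in AC B6, and to 10.6 to 12.5 CPM in control SjSS and 14.9 to 19.0 CPM in AC SjSS. Most of that sum was *Cd4*, which fell after AC by 1.27 in B6 (SE 0.14, adjusted p = 7.41e-07, edgeR) and rose by 0.44 in SjSS (SE 0.13, adjusted p = 0.00662). Without *Cd4*, a split made after the values were seen, the other 13 summed to 0.737 to 1.40 CPM in control B6 and 0.828 to 1.34 CPM in control SjSS. In AC samples they summed to 1.85 to 2.65 CPM in B6 and 1.93 to 2.92 CPM in SjSS. *Trac* had 0 counts in control B6. Single markers, picked after the values were seen, went different ways. *Rag1* went from 0 counts in each control group to 24 in AC B6 and 3 in AC SjSS. *Dntt* went from 0 to 18 counts in B6 and from 2 to 1 in SjSS, and *Themis* from 1 to 10 and from 1 to 0. *Lck* went from 0.132 to 0.264 CPM in B6 and from 0.155 to 0.651 CPM in SjSS. *Lat* went from 0.656 to 0.492 and from 0.546 to 0.976 CPM, and *Tcf7* from 0.176 to 0.460 and from 0.157 to 0.376 CPM. The full sum was thus lower after AC in B6 and higher in SjSS, the sum without *Cd4* was higher after AC in both, and their part in the AC results below was not tested. The 5 platelet and megakaryocyte markers summed to 696 to 834 CPM in control B6 and 641 to 748 CPM in AC B6, and to 804 to 946 CPM in control SjSS and 1028 to 1247 CPM in AC SjSS. Nearly all of this was *Pf4*, which rose after AC in SjSS by 0.36 (SE 0.10, adjusted p = 0.00361, edgeR) and was at -0.10 in B6 (adjusted p = 0.463). *Itga2b*, *Gp9* and *Gp1bb* of the same list were at or under 0.480 CPM in every sample. The 6 neutrophil markers (4 in the table) summed to 3.39 to 5.04 CPM in control B6 and 11.2 to 12.8 CPM in CpG B6, and the 3 fibroblast markers to 20.8 to 63.7 CPM in control B6 and 77.1 to 111 CPM in control SjSS. Their part was not tested either. In bulk RNA, fewer cells that express a gene and less RNA per cell cannot be told apart.

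Several of the receptors lie side by side in the genome (mm10, positions as in the deposited table). *P2ry14* (chromosome 3, 59113855 to 59153619), *P2ry13* (59207892 to 59210883) and *P2ry12* (59216272 to 59262872) are on the minus strand, with gaps of 54.3 kb and 5.4 kb. All 3 lie inside *Med12l* on the opposite strand, which had 412 counts over all samples against 7164, 9513 and 8816 for the receptors. *P2rx7* (chromosome 5, 122643911 to 122691433) and *P2rx4* (122707544 to 122729739) are 16.1 kb apart on the plus strand, and *P2ry6* (chromosome 7, 100937630 to 100974650) and *P2ry2* (100996568 to 101012867) are 21.9 kb apart on the minus strand. *Adora2a* (chromosome 10, 75316943 to 75334789), *Adora2b* (chromosome 11, 62248984 to 62266454) and *Adora3* (chromosome 3, 105870858 to 105908927) stand alone. *Adora3* overlaps *Tmigd3* on the same strand (758 and 66 counts in all), so its counts are uncertain. Which receptors lie in the NOD-derived *Idd3* and *Idd5* intervals was not determined, and an effect of NOD sequence on the counts was not tested.

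Promoter windows of 300 bases, 250 before and 50 after a transcript start, were found in RefSeq (GRCm38.p6) for 8 of the 10 receptors, in 13 windows. The windows of the chromosome 3 cluster are shown because these neighbouring genes differed between the strains after AC, with that of *Adora2b* for contrast. Capitals mark an AP-1 motif (TGAGTCA or its complement).
*P2ry12* (chr3:59262936-59263235, minus strand): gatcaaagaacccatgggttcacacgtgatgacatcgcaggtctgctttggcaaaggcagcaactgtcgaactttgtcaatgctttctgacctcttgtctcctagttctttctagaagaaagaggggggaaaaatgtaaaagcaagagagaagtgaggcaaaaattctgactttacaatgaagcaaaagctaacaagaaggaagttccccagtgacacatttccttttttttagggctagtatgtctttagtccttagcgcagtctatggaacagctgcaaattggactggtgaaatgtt
*P2ry13* (chr3:59210833-59211132, minus strand): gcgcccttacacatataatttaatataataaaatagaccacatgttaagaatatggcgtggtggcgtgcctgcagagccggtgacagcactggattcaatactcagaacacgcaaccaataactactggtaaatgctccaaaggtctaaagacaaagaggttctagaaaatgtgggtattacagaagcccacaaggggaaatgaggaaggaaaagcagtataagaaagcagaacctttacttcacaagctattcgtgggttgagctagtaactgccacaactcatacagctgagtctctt
*P2ry14* (chr3:59153443-59153742, minus strand, first of 4 windows): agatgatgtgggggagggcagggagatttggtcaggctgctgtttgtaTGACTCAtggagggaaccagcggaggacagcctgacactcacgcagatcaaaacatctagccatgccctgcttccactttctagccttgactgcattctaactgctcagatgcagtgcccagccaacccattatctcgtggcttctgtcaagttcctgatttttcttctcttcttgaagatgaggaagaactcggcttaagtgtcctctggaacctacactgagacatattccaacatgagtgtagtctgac
*Adora2b* (chr11:62248734-62249033, plus strand): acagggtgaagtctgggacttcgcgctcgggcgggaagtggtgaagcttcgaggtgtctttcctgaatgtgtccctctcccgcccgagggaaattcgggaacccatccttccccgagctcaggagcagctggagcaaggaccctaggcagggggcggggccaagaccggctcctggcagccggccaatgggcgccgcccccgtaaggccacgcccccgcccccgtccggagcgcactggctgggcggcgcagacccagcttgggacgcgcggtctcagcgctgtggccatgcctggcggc
The *P2ry12* and *P2ry13* windows had a GC content of 42.3% each with 4 and 6 CpG dinucleotides, whereas the *Adora2b* window had 70.0% with 27. Among the 13 windows, AP-1 was found once each in *P2rx7*, *P2ry14* and *Adora3*, and PU.1 (GAGGAAGT) once each in *P2rx7* and *Adora3*, on either strand. No window held CRE (TGACGTCA), GAS (TTCNNNGAA), NF-kB or ISRE motifs. Of all 32851 mouse promoter windows, 5.2% held AP-1, 3.2% PU.1, 1.79% CRE, 8.3% GAS, 1.63% NF-kB and 3.44% ISRE. A match describes letters only.

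Per kb of exon, *P2ry6* and *P2rx4* were the most abundant receptors in all 6 groups. In control B6 *P2ry6* stood at 61.9 ± 2.39 CPM per kb (SD, n = 3), *P2rx4* at 44.8 ± 1.62 and *P2rx7* at 20.2 ± 0.633. *Adora2b* (10.5 ± 1.63), *P2ry2* (8.07 ± 1.07), *P2ry12* (7.92 ± 1.21) and *P2ry13* (7.88 ± 1.32) followed, and *P2ry2*, *P2ry12* and *P2ry13* differed by less than their spread. *Adora2a* (1.00 ± 0.189), *P2ry14* (0.672 ± 0.0850) and *Adora3* (0.318 ± 0.110) were lowest. The length was that of the merged exons of all annotated transcripts, 11.1 kb for *P2ry14* against 2.55 kb for *P2ry12* and 2.53 kb for *P2ry13*. The rank of *P2ry14* depends on this choice. Without division by length it stood at 7.44 CPM in control B6, above *Adora2a* at 3.06 CPM. After treatment the order changed most for *Adora2a*, which took rank 4 in CpG B6 (19.0 ± 1.51 CPM per kb) and rank 3 in AC SjSS (11.9 ± 0.371), from rank 8 and rank 9 in the respective controls. In control SjSS *Adora2b* stood at rank 7 (3.74 ± 1.58 CPM per kb) in place of rank 4, *P2ry12* (7.28 ± 0.134), *P2ry2* (6.25 ± 0.797) and *P2ry13* (5.50 ± 0.274) at ranks 4 to 6, and *P2ry14* (0.834 ± 0.0606) before *Adora2a* (0.746 ± 0.0430).

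**Figure D1:**
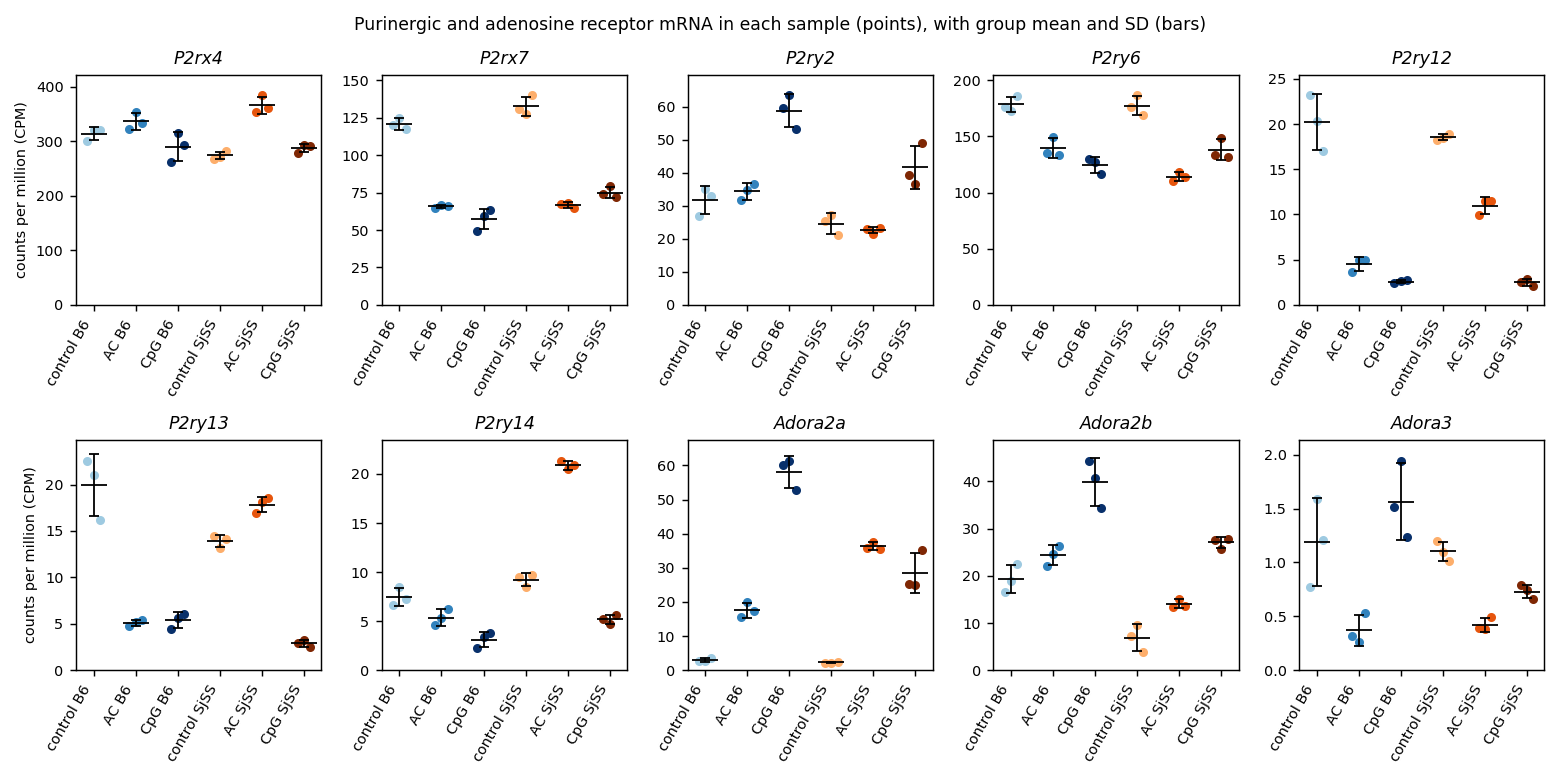
Level of each receptor in CPM (vertical axes, from 0) in the 18 samples; points are samples, and bars are the mean and SD of 3. *P2ry12*, *P2ry13* and *P2ry14* are lower in AC B6 than in AC SjSS, and *Adora2a* goes from means of 3.06 CPM (B6) and 2.28 CPM (SjSS) in controls to at least 15.5 CPM in each treated sample.

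Both stimuli changed most of the 10 receptors. The AC response differed between the strains in 7 of them and the CpG response in 1. Of all genes, 19.6% had a higher and 18.3% a lower AC response in SjSS, and 3.23% and 2.62% for CpG. A gene was said to rise or fall at an adjusted p under 0.05 in the quasi-likelihood test of edgeR, adjusted by Benjamini-Hochberg over all genes tested. After AC in B6, 1 receptor rose and 6 fell, where 20.0% of all genes tested rose and 18.3% fell. After AC in SjSS, 5 rose and 4 fell (28.6% and 29.4% of all genes). After CpG, 3 rose and 5 fell in B6 (28.1% and 29.8% of all genes), and 3 rose and 5 fell in SjSS (27.8% and 26.4%). At a log2 fold change over 1.3 as well, the limit in the study's methods, 4, 2, 3 and 4 receptors changed in these comparisons, against 4.47%, 12.9%, 12.7% and 9.26% of all genes. The median log2 fold change of the 10 was -0.41 after AC in B6 and 0.12 after AC in SjSS, against 0.00 and -0.02 over all genes. It was -0.32 and -0.48 after CpG, against -0.04 and -0.01. The AC and CpG responses of a strain share their control samples.

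In control cells 0 receptors were higher and 4 lower in SjSS than in B6 (9.04% and 10.6% of all genes). At an unadjusted p under 0.05 edgeR gave 1 higher and 5 lower, and DESeq2 gave 0 and 5 after adjustment. After AC 4 were higher and 3 lower (24.0% and 25.5%), and after CpG 2 were higher and 5 lower (10.2% and 9.57%). With DESeq2 these counts were 5 and 3 after AC and 2 and 4 after CpG. Of the 7 receptors whose AC response differed, 6 had the higher response in SjSS and 1 the lower, against 19.6% and 18.3% of all genes. DESeq2 gave 5 and 1, without *Adora2b* (adjusted p = 0.0709). For 4 of them the difference was over 1.3 on the log2 scale, as for 7.53% of all genes. The CpG response differed for 1 receptor, higher in SjSS, and for 0 lower (3.23% and 2.62% of all genes). At an unadjusted p under 0.05 edgeR gave 3 higher and 2 lower, and DESeq2 gave 1 and 1 after adjustment.

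**Figure D2:**
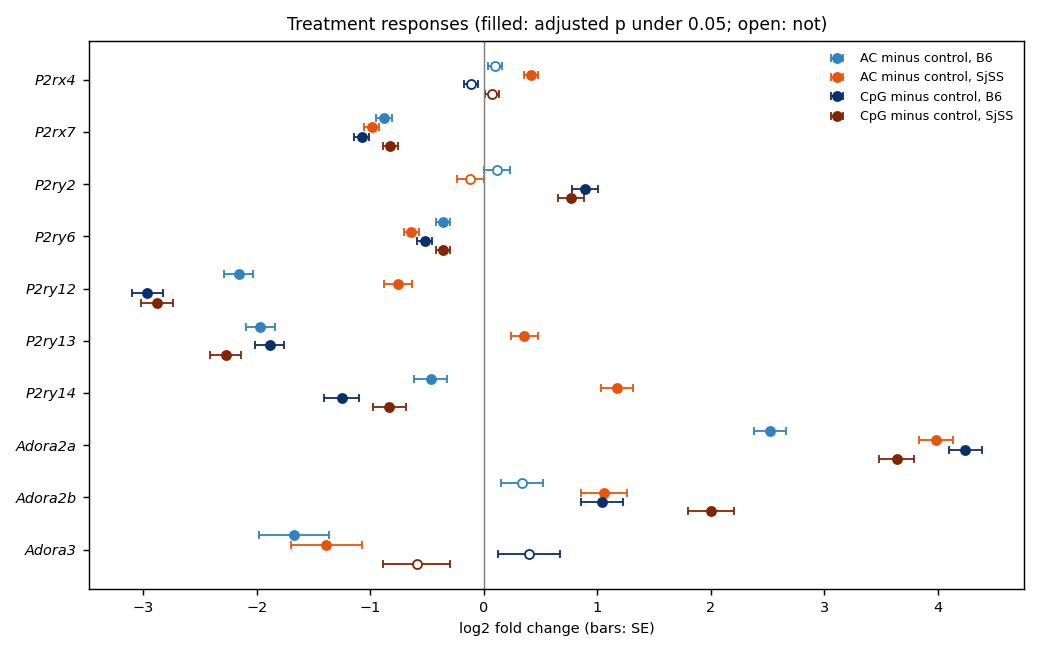
Log2 fold change of each receptor against the control samples of the same strain (horizontal axis, bars are SE) after AC and CpG in B6 and SjSS, n = 3 samples per group; filled points passed an adjusted p of 0.05. The AC values of *P2ry12*, *P2ry13*, *P2ry14* and *Adora2a* lie 1.41 to 2.33 apart between the strains. The CpG values lie 0.08 apart for *P2ry12*, 0.61 for *Adora2a*, 0.96 for *Adora2b* and 0.99 for *Adora3*, of which the *Adora2b* difference passed.

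After AC the strains differed in all 3 Gi-coupled receptors of the chromosome 3 cluster. *P2ry12* encodes the ADP receptor that marks microglia and platelets. Of the platelet markers, *Pf4* and *Ppbp* also had a higher AC response in SjSS than in B6, by 0.46 (SE 0.14, adjusted p = 0.0126, edgeR) and 0.94 (SE 0.26, adjusted p = 0.00817). The rest of that list was at low levels. After AC *Itga2b* went from 0.404 to 0.279 CPM in B6 and from 0.203 to 0.0575 CPM in SjSS. *Gp9* went from 0.171 to 0.101 CPM in B6 and from 0.129 to 0.231 CPM in SjSS, and *Gp1bb* was at or under 0.157 CPM in every sample. The part of these markers was not tested. *P2ry12* was at 23.2, 20.4 and 17.0 CPM in control B6 and at 3.61, 4.92 and 5.01 CPM in AC B6. In SjSS it was at 18.2, 18.5 and 18.9 CPM in control and at 9.95, 11.5 and 11.5 CPM in AC samples. Every AC sample lay below every control of its strain, and every AC SjSS sample above every AC B6 sample. *P2ry12* thus fell by 2.16 on the log2 scale in B6 (SE 0.13, 4.47-fold, adjusted p = 2.86e-10, edgeR) and by 0.75 in SjSS (SE 0.12, adjusted p = 3.01e-05). The response differed between the strains by 1.41 (SE 0.18, adjusted p = 4.19e-06, same test). In CpG samples it lay between 2.12 and 2.89 CPM in all 6, below all other samples. It fell by 2.96 in B6 (SE 0.14, adjusted p = 1.29e-12) and by 2.88 in SjSS (SE 0.14, adjusted p = 3.10e-12), and the difference of these responses, 0.08, had a 95% interval of -0.30 to 0.47.

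*P2ry13*, another ADP receptor, went in opposite directions after AC on the TMM-scaled levels. Control B6 samples were at 22.6, 21.0 and 16.2 CPM and AC B6 samples at 4.73, 5.15 and 5.39 CPM. Control SjSS samples were at 14.4, 13.1 and 14.2 CPM and AC SjSS samples at 16.9, 18.1 and 18.5 CPM. AC samples were all lower than controls in B6 and all higher in SjSS. The log2 fold change was -1.97 in B6 (SE 0.13, adjusted p = 7.30e-10, edgeR) and 0.36 in SjSS (SE 0.12, adjusted p = 0.0159). The difference of 2.33 (SE 0.17, adjusted p = 5.46e-09, same test) was the widest of the 10 receptors. The small rise in SjSS lost its call without control SjSS replicate 2 (adjusted p = 0.0579) or AC SjSS replicate 3 (adjusted p = 0.0517), within a range of 0.00237 to 0.0579 over 25 alternatives. After CpG it was at 4.45, 5.64 and 6.11 CPM in B6 and 2.90, 3.26 and 2.49 CPM in SjSS. It fell by 1.89 and 2.27 (SE 0.13 and 0.14, adjusted p = 2.29e-10 and 6.23e-11). CpG SjSS samples were lower than CpG B6 samples by 0.90 (SE 0.14, adjusted p = 0.000165), and control SjSS samples lower than control B6 by 0.52 (SE 0.12, adjusted p = 0.00501).

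*P2ry14*, the UDP-glucose receptor, had the larger rise of the cluster after AC in SjSS. It was at 6.63, 8.47 and 7.21 CPM in control B6 and 4.57, 5.28 and 6.26 CPM in AC B6. In SjSS it was at 9.49, 8.46 and 9.72 CPM in control and 21.3, 20.5 and 20.9 CPM in AC samples. AC SjSS samples stood above all 15 others. It rose in SjSS by 1.18 (SE 0.14, 2.26-fold, adjusted p = 6.33e-07, edgeR) and fell in B6 by 0.47 (SE 0.15, adjusted p = 0.0159). The fall in B6 lost its call without control B6 replicate 2 (adjusted p = 0.0836) or AC B6 replicate 1 (adjusted p = 0.0883), within 0.00181 to 0.0883 over 25 alternatives. The responses differed by 1.64 (SE 0.20, adjusted p = 3.07e-06, same test). CpG lowered it in both strains, to 2.24, 3.35 and 3.80 CPM in B6 and 5.22, 4.69 and 5.66 CPM in SjSS. These falls were 1.25 and 0.83 (SE 0.15 and 0.15, adjusted p = 1.05e-06 and 9.11e-05), and all CpG SjSS samples lay above all CpG B6 samples (0.74 higher, SE 0.16, adjusted p = 0.00283).

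**Figure D3:**
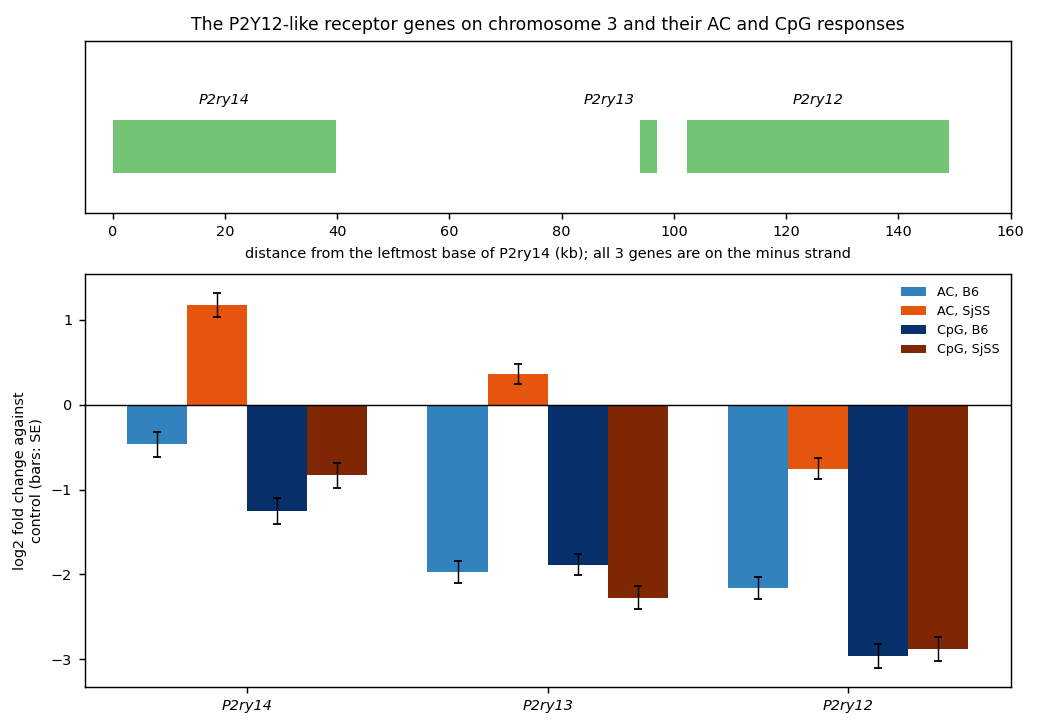
Upper panel, the 3 receptor genes of chromosome 3 drawn to scale by distance in kb from the leftmost base of *P2ry14*. Lower panel, their log2 fold change against control (bars are SE, n = 3 per group); AC lowered all 3 in B6, while in SjSS *P2ry14* and *P2ry13* rose and *P2ry12* fell by 0.75.

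The genes around the cluster were counted as well. Within 500 kb of *P2ry14* there were 9 genes other than the receptors, including *Med12l*, which overlaps them. Of these, 6 were tested, *Med12l* among them, and 4 of those 6 had a higher AC response in SjSS than in B6, with 0 lower, where 19.6% of all genes were higher and 18.3% lower. These 4 were *Gpr171*, *Siah2*, *Gm8276* and *Rpl13-ps6*, named after their values were seen. Their adjusted p-values were 0.0174 to 0.0300 (edgeR), and the levels of the last 3 were not examined. *Rpl13-ps6* is by its symbol a pseudogene, so its counts are uncertain. *Gpr171*, a P2Y-related G protein-coupled receptor gene beside *P2ry14*, was at 1.05 ± 0.363 CPM in control B6 and 0.401 ± 0.286 CPM in AC B6. It was at 1.91 ± 0.324 CPM in control SjSS and 2.53 ± 0.841 CPM in AC SjSS (n = 3 each), with an AC response 1.79 higher in SjSS (SE 0.56, adjusted p = 0.0174, edgeR). *Med12l*, which spans the cluster, was at a mean of 0.769 CPM or less in every group. It fell after AC by 1.68 in B6 (SE 0.48, adjusted p = 0.00967, edgeR) and was at -0.11 in SjSS (adjusted p = 0.849). AC SjSS samples lay 1.45 above AC B6 samples (SE 0.49, adjusted p = 0.0204). The difference of its AC responses did not pass (1.57, SE 0.66, adjusted p = 0.0696). *P2ry1*, an ADP receptor coupled to Gq on the same chromosome (61002795 to 61008983), is no member. It fell after AC in both strains, with the larger fall in SjSS. It was at 2.84 ± 0.569 CPM in control B6 and 11.5 ± 1.47 CPM in control SjSS, and fell after AC to 1.37 ± 0.334 and 2.20 ± 0.291 CPM (by 1.06 and 2.39, SE 0.19 and 0.18, adjusted p = 0.000215 and 9.77e-10).

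The Gq-coupled receptors of chromosome 7 moved less and apart from each other. *P2ry2*, which senses ATP and UTP, was at 27.0 to 35.1 CPM in control B6, 31.8 to 36.7 CPM in AC B6 and 53.3 to 63.4 CPM in CpG B6. In SjSS it was at 21.1 to 27.2 CPM in control, 21.5 to 23.2 CPM in AC and 36.5 to 48.9 CPM in CpG samples. AC samples overlapped controls in both strains (0.12 with a 95% interval of -0.10 to 0.34 in B6, -0.12 in SjSS), and CpG samples lay above them. *P2ry2* rose after CpG by 0.89 in B6 (SE 0.11, adjusted p = 1.28e-06, edgeR) and by 0.76 in SjSS (SE 0.11, adjusted p = 1.34e-05). It was lower in SjSS in every condition, by 0.37 in control (SE 0.11, adjusted p = 0.0292), 0.61 after AC (SE 0.12, adjusted p = 0.000241) and 0.50 after CpG (SE 0.11, adjusted p = 0.00372). The control difference, where the samples overlapped, lost its call in a fit of the control samples alone (adjusted p = 0.0630). It also lost it without control B6 replicate 2, control B6 replicate 3 or control SjSS replicate 3 (adjusted p = 0.139, 0.0787 and 0.155), within 0.0103 to 0.155 over 24 alternatives.

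*P2ry6*, the UDP receptor that triggers phagocytosis in microglia, fell after both stimuli. It was at 173 to 186 CPM in control B6 and 169 to 187 CPM in control SjSS, which overlapped. AC samples were at 134 to 150 CPM in B6 and 110 to 119 CPM in SjSS. CpG samples were at 116 to 130 CPM in B6 and 132 to 149 CPM in SjSS, so that all treated samples lay below all controls. AC lowered it by 0.36 in B6 (SE 0.06, adjusted p = 0.000158, edgeR) and by 0.64 in SjSS (SE 0.06, adjusted p = 5.25e-08). The difference of these responses was -0.28 (SE 0.09, adjusted p = 0.0180). It did not pass without AC B6 replicate 2 (adjusted p = 0.0620) or control SjSS replicate 2 (adjusted p = 0.0538), within 0.0105 to 0.0620 over 25 alternatives. After CpG the falls were 0.52 and 0.36 (SE 0.06 each, adjusted p = 7.36e-07 and 6.97e-05).

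The ATP-gated channels, neighbours on chromosome 5, behaved unlike each other. *P2rx7*, the inflammasome-linked channel, was at 120, 125 and 118 CPM in control B6 and 131, 127 and 140 CPM in control SjSS. AC samples were at 64.7, 66.6 and 66.1 CPM in B6 and 67.7, 68.1 and 64.6 CPM in SjSS. CpG samples were at 49.6, 59.3 and 63.0 CPM in B6 and 74.1, 79.1 and 71.8 CPM in SjSS. Every treated sample lay below every control. AC lowered it by 0.88 in B6 (SE 0.07, adjusted p = 1.00e-08, edgeR) and by 0.99 in SjSS (SE 0.07, adjusted p = 3.31e-10), and the difference of the responses was -0.11 with a 95% interval of -0.30 to 0.08. CpG lowered it by 1.08 and 0.82 (SE 0.07 each, adjusted p = 1.14e-10 and 6.34e-09), and CpG SjSS samples stayed 0.39 above CpG B6 samples (SE 0.07, adjusted p = 0.000533). *P2rx4*, an endolysosomal and surface ATP channel, was at 301 to 321 CPM in control B6 and 269 to 282 CPM in control SjSS. It rose after AC in SjSS to 355 to 384 CPM, by 0.42 (SE 0.06, adjusted p = 8.69e-06), while AC B6 samples were at 324 to 354 CPM (0.10, adjusted p = 0.212). The responses differed by 0.32 (SE 0.09, adjusted p = 0.00712). Both the rise in SjSS and this difference rest on the lower TMM factors of AC SjSS. CpG samples overlapped controls in both strains, at 262 to 316 CPM in B6 and 279 to 294 CPM in SjSS. The CpG change in B6 was -0.12 (adjusted p = 0.115), and with the replicate number as a block, which paired these samples, it passed (-0.12, adjusted p = 0.0478), as it did without CpG B6 replicate 2 (-0.18, adjusted p = 0.0216), within 0.0216 to 0.519 over 25 alternatives. The lower level of control SjSS (by 0.20, SE 0.06, adjusted p = 0.0296) lost its call in a fit of the control samples alone (adjusted p = 0.0513). It also lost it without control B6 replicate 2 or 3 or control SjSS replicate 1 or 2 (adjusted p = 0.102, 0.0806, 0.0820 and 0.0827), within 0.00943 to 0.102 over 24 alternatives.

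The adenosine receptors that couple to Gs both rose after CpG in both strains, and after AC *Adora2a* rose in both strains and *Adora2b* in SjSS. *Adora2a* was at 2.69, 2.77 and 3.73 CPM in control B6, 15.5, 19.9 and 17.3 CPM in AC B6 and 60.2, 61.3 and 52.8 CPM in CpG B6. In SjSS it was at 2.17, 2.25 and 2.43 CPM in control, 35.7, 37.6 and 35.6 CPM in AC and 25.2, 24.9 and 35.3 CPM in CpG samples. All treated samples lay above all controls, and AC exceeded CpG in SjSS while CpG exceeded AC in B6. AC raised *Adora2a* by 2.52 in B6 (SE 0.14, 5.74-fold, adjusted p = 1.43e-10, edgeR) and by 3.99 in SjSS (SE 0.15, 15.9-fold, adjusted p = 5.32e-14). The AC response was 1.47 higher in SjSS (SE 0.21, adjusted p = 2.00e-05, same test). CpG raised it by 4.24 in B6 (SE 0.15, adjusted p = 1.87e-14) and by 3.64 in SjSS (SE 0.15, adjusted p = 3.99e-13). The difference of the CpG responses was -0.61 (95% interval -1.02 to -0.19) and did not pass (adjusted p = 0.101), but did without control B6 replicate 3 (adjusted p = 0.0383), without CpG SjSS replicate 3 (adjusted p = 0.00932) and with DESeq2 (adjusted p = 0.0301), within 0.00932 to 0.232 over 25 alternatives. As levels, SjSS lay above B6 after AC (by 1.04, SE 0.12, adjusted p = 1.10e-06) and below it after CpG (by 1.03, SE 0.12, adjusted p = 7.28e-06).

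*Adora2b*, the low-affinity adenosine receptor, was lower in SjSS than in B6 throughout. It was at 16.6, 18.9 and 22.6 CPM in control B6, 22.2, 24.6 and 26.4 CPM in AC B6 and 44.4, 40.7 and 34.4 CPM in CpG B6. In SjSS it was at 7.31, 9.58 and 3.81 CPM in control, 13.4, 15.1 and 13.6 CPM in AC and 27.6, 25.8 and 27.9 CPM in CpG samples. No sample of one strain overlapped the other strain in the same condition. SjSS was lower by 1.52 in control (SE 0.20, adjusted p = 3.28e-05, edgeR), by 0.79 after AC (SE 0.19, adjusted p = 0.00187) and by 0.55 after CpG (SE 0.18, adjusted p = 0.0386). The CpG difference lost its call with DESeq2 (adjusted p = 0.0526) and without CpG B6 replicate 1 or 2 or any 1 CpG SjSS replicate (0.0692 to 0.134), within 0.00191 to 0.134 over 24 alternatives. CpG raised it by 1.04 in B6 (SE 0.18, adjusted p = 7.43e-05) and by 2.00 in SjSS (SE 0.20, adjusted p = 8.10e-08). AC raised it in SjSS by 1.06 (SE 0.20, adjusted p = 0.000181), and AC B6 overlapped control B6 (0.33, adjusted p = 0.171), a change that passed in a fit of those groups alone (adjusted p = 0.0393) and without control SjSS replicate 3 (adjusted p = 0.0281), within 0.0281 to 0.418 over 25 alternatives. The responses were higher in SjSS by 0.73 for AC (SE 0.27, adjusted p = 0.0442) and by 0.96 for CpG (SE 0.27, adjusted p = 0.0414). Each of these differences was lost in 12 of the 18 fits that left out 1 sample, for AC without replicates 2 and 3 of control B6, 1 and 2 of AC B6, 2 of CpG B6, 3 of control SjSS and each of AC SjSS and CpG SjSS. For CpG it was lost without replicates 2 and 3 of control B6, AC B6 and CpG B6 and each of AC SjSS and CpG SjSS. Adjusted p reached 0.113 for AC and 0.105 for CpG over 25 alternatives each, down from 0.00395 and 0.00659.

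*Adora3*, the Gi-coupled adenosine receptor, was at a low level, with 54 to 205 counts per group of 3 samples. It was at 0.769 to 1.59 CPM in control B6 and 0.265 to 0.535 CPM in AC B6, and at 1.02 to 1.20 CPM in control SjSS and 0.379 to 0.494 CPM in AC SjSS. AC samples lay below the controls in both strains. It fell by 1.67 in B6 (SE 0.31, adjusted p = 0.000248, edgeR) and by 1.39 in SjSS (SE 0.31, adjusted p = 0.000783). After CpG it was at 1.24 to 1.94 CPM in B6 and 0.662 to 0.787 CPM in SjSS, neither of which passed against control (0.40 and -0.59, adjusted p = 0.220 and 0.0959). CpG SjSS lay 1.09 below CpG B6 (SE 0.29, adjusted p = 0.0113), a call lost without CpG B6 replicate 2 (adjusted p = 0.0574), within 0.00313 to 0.0574 over 24 alternatives.

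**Figure D4:**
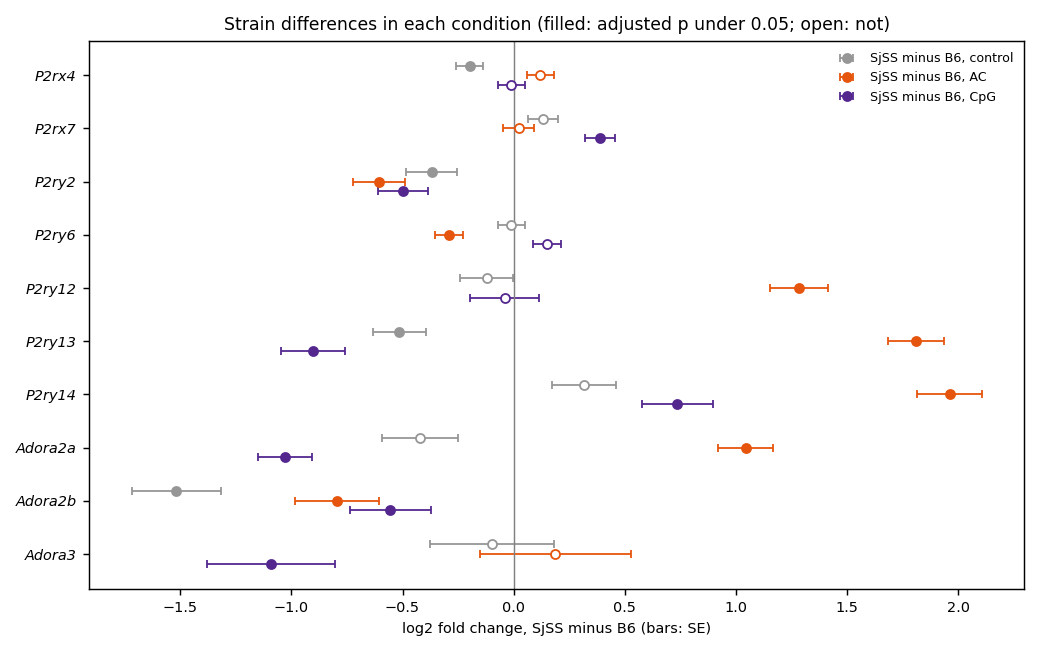
Log2 fold change SjSS minus B6 for each receptor in control, AC and CpG samples (horizontal axis, bars are SE, n = 3 per group); filled points passed an adjusted p of 0.05. After AC, *P2ry12*, *P2ry13*, *P2ry14* and *Adora2a* lie 1.04 to 1.96 higher in SjSS, and *Adora2b* lies below B6 in all 3 conditions.

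Genes linked to the supply and removal of the receptors' ligands were followed as lists. Their counts are read against the shares of all genes that rose and fell, 20.0% and 18.3% after AC in B6, 28.6% and 29.4% after AC in SjSS, 28.1% and 29.8% after CpG in B6, and 27.8% and 26.4% after CpG in SjSS. Of the ATP release genes, 7 of 9 listed were tested. After AC 3 rose and 2 fell in B6, and 4 rose and 3 fell in SjSS. After CpG 3 rose and 2 fell in each strain. The share of the 7 genes that rose was 42.9% to 57.1% and the share that fell 28.6% to 42.9%, and the list's median log2 fold change was -0.07 and 0.35 after AC in B6 and SjSS and -0.10 and -0.08 after CpG. *Abcc1*, a transporter linked to ATP efflux, rose after CpG by 1.74 in B6 and 1.43 in SjSS (SE 0.06 each, adjusted p = 9.31e-15 and 1.48e-13, edgeR). *Gja1*, the connexin 43 hemichannel gene, went from 5.36 ± 0.588 CPM in control B6 to 12.9 ± 0.484 CPM after AC and 41.4 ± 10.4 CPM after CpG. In SjSS it went from 5.68 ± 0.355 to 28.8 ± 2.51 and 12.9 ± 2.63 CPM (n = 3 each), so that, like *Adora2a*, it was higher after AC than after CpG in SjSS and the reverse in B6. *Lrrc8a*, a volume-regulated anion channel subunit, had the largest fall, by 1.03 after AC in SjSS.

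Among genes listed as ectonucleotidases, 14 of 19 were tested, and which of them act outside the cell was not considered. After AC 4 rose and 7 fell in B6, and 4 rose and 6 fell in SjSS. After CpG 4 rose and 6 fell in B6, and 5 rose and 6 fell in SjSS. The share that rose, 28.6% to 35.7%, and the share that fell, at least 42.9%, rest on 14 genes, with medians of -0.10 and -0.17 after AC and -0.13 and -0.10 after CpG. *Entpd1* (CD39), which degrades ATP and ADP, went from 228 ± 18.4 CPM to 144 ± 11.2 after AC and 24.8 ± 5.18 after CpG in B6. In SjSS it went from 211 ± 29.9 to 166 ± 3.52 and 35.6 ± 6.79 CPM. It fell after CpG by 3.20 in B6 and 2.57 in SjSS (SE 0.15 and 0.14, adjusted p = 1.08e-12 and 2.24e-11, edgeR). *Nt5e* (CD73), which makes adenosine from AMP, was at or below 2.48 CPM on average in every group and fell after CpG by 1.97 and 1.11 (adjusted p = 0.000500 and 0.0195). *Enpp1*, which cleaves ATP to AMP, fell by 1.48 and 1.42 after CpG. *Cd38*, an NAD-consuming enzyme, rose in all 4 responses, by 0.97 to 2.56. *Enpp4*, an ectoenzyme that hydrolyses diadenosine triphosphate, stood apart. It went from 7.58 ± 1.03 to 14.3 ± 0.817 CPM after AC in B6 and from 16.7 ± 0.578 to 212 ± 8.06 CPM in SjSS, a rise of 3.67 (SE 0.15, 12.7-fold, adjusted p = 8.58e-14) that was 2.75 above the one in B6 (SE 0.20, adjusted p = 4.55e-09).

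For adenosine uptake and conversion, 8 of 10 listed genes were tested. After AC 2 rose and 2 fell in B6, and 3 rose and 1 fell in SjSS, and after CpG 2 rose and 3 fell in each strain. The shares were 25.0% to 37.5% that rose and 12.5% to 37.5% that fell, near those of all genes, with medians of -0.0022 and 0.18 after AC and 0.10 and 0.12 after CpG. *Slc28a2*, a concentrative nucleoside transporter, rose after CpG by 1.92 in B6 and 1.05 in SjSS (SE 0.13 each, adjusted p = 1.78e-10 and 1.04e-06, edgeR). *Slc29a2*, an equilibrative transporter, rose after AC in B6 by 0.51 and fell in SjSS by 1.03, a difference of -1.54 (SE 0.26, adjusted p = 0.000114).

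**Figure D5:**
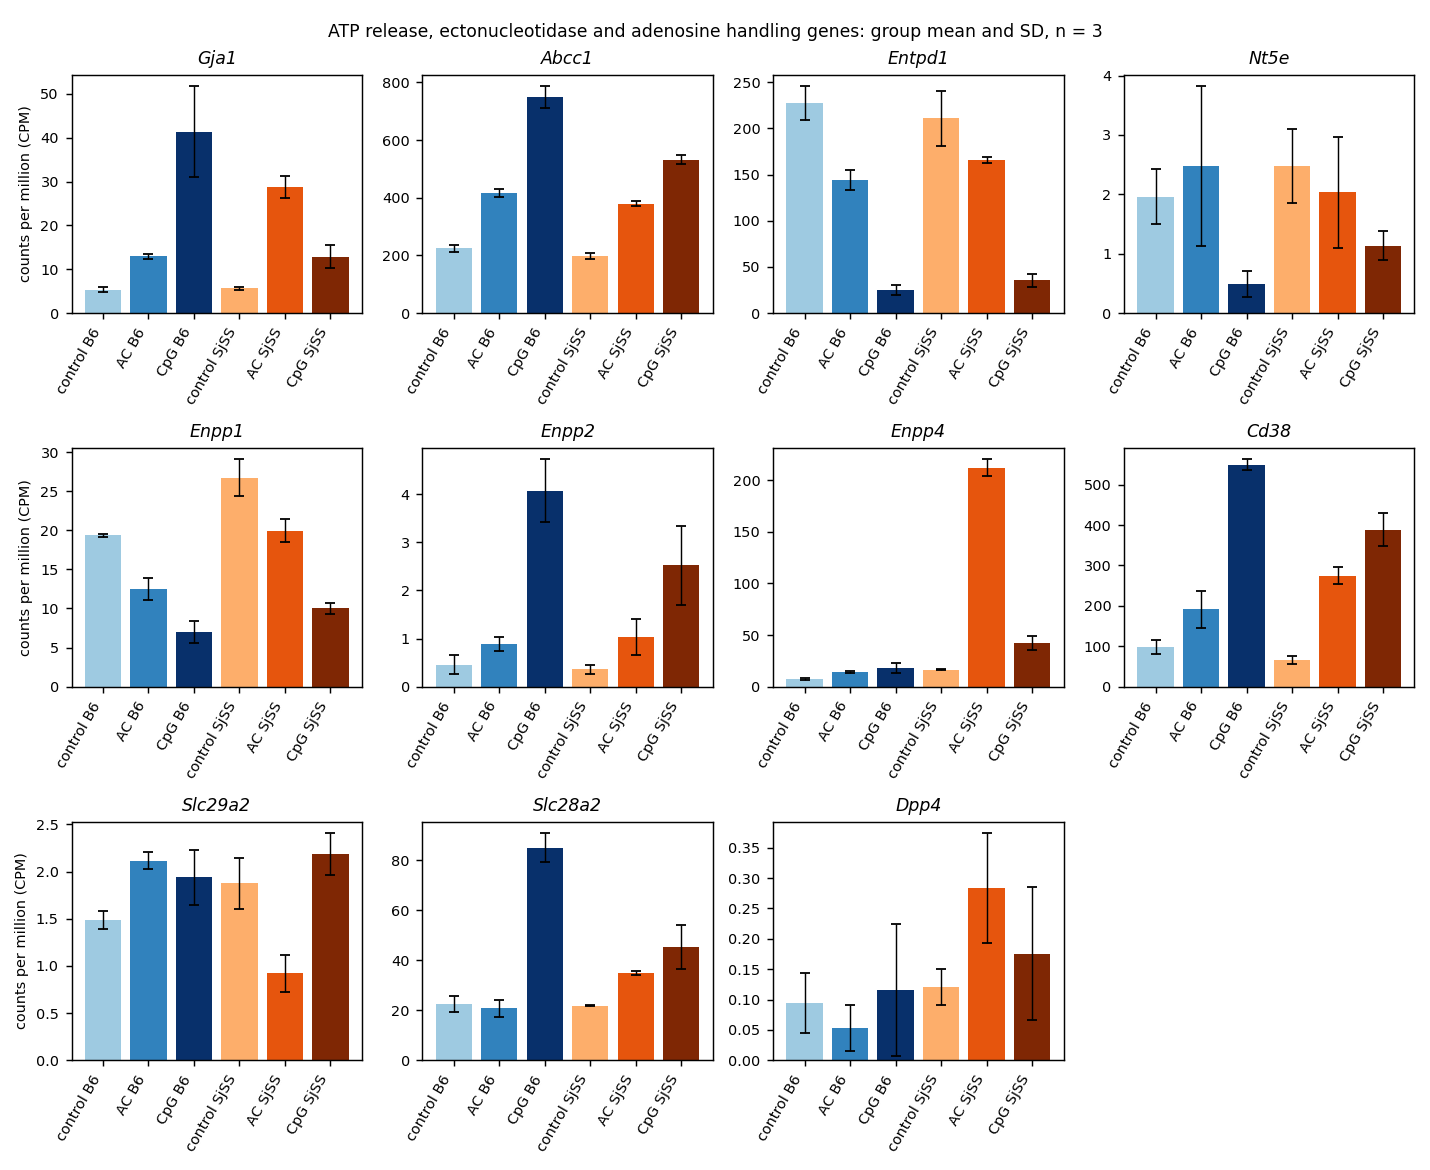
Mean level in CPM (vertical axes, from 0; bars are SD, n = 3) in the 6 groups for the 11 tested genes of the ATP release, ectonucleotidase and adenosine lists that passed a log2 fold change of 1.3 in at least 1 comparison, as did 25.3% of all genes (85.4% at the adjusted p alone). *Entpd1* is lowest after CpG in both strains, and *Enpp4* stands at 212 CPM in AC SjSS against at most 42.6 CPM elsewhere.

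Downstream genes were counted in the same way and read against the same shares. Of all genes 20.0% rose and 18.3% fell after AC in B6, and 28.6% and 29.4% in SjSS. After CpG 28.1% rose and 29.8% fell in B6, and 27.8% and 26.4% in SjSS. All 9 listed P2X7 effector genes (inflammasome and IL-1 genes) were tested. After AC 6 rose and 0 fell in B6, and 8 rose and 0 fell in SjSS. After CpG 6 rose and 1 fell in B6, and 7 rose and 0 fell in SjSS. The share that rose was 66.7% to 88.9%, and the list's median was 0.29 and 1.54 after AC and 0.58 and 0.76 after CpG. Unadjusted edgeR p-values under 0.05 and adjusted DESeq2 p-values gave equal counts here. *Il1b* rose by 3.29 after AC in B6 and 6.05 in SjSS, and by 7.61 and 5.82 after CpG, while *P2rx7* fell in the same 4 responses. Of 14 cAMP-responsive genes 13 were tested. After AC 5 rose and 3 fell in B6, and 7 rose and 4 fell in SjSS. After CpG 3 rose and 7 fell in B6, and 4 rose and 7 fell in SjSS. The share that rose was 38.5% and 53.8% after AC and 23.1% and 30.8% after CpG, and the share that fell 23.1% and 30.8% after AC and 53.8% each after CpG, with medians of 0.24 and 0.41 after AC and -0.97 and -0.33 after CpG. *Nr4a3*, an immediate early nuclear receptor, rose by 3.11 after AC in SjSS (SE 0.41, adjusted p = 2.55e-06, edgeR) and fell by 2.60 after CpG in B6 (SE 0.53, adjusted p = 0.000309). *Il10* rose in all 4 responses, by 1.71 to 5.30, and *Rgs2*, a brake on Gq signalling, fell after CpG by 4.17 and 2.62. Of the 12 G protein and adenylyl cyclase genes, 2 rose and 4 fell after AC in B6, and 5 rose and 4 fell in SjSS. After CpG 2 rose and 6 fell in B6, and 1 rose and 4 fell in SjSS. The shares were 8.33% to 41.7% that rose and at least 33.3% that fell, with medians of -0.11 and 0.09 after AC and -0.21 and -0.13 after CpG. *Adcy9* fell by 1.57 after AC in SjSS and *Adcy3* by 1.46 and 1.45 after CpG, both being enzymes that make cAMP. Of the 9 other purinergic receptors listed 4 were tested. After AC 0 rose and 2 fell in B6, and 0 rose and 1 fell in SjSS, and after CpG 1 rose and 3 fell in B6, and 0 rose and 3 fell in SjSS. With 4 genes the shares are coarse (0% to 25.0% rose and 25.0% to 75.0% fell), and the medians were -0.94 and -0.07 after AC and -1.31 and -0.69 after CpG. At an unadjusted p under 0.05 edgeR gave 0, 1 and 0 higher where 0 rose, and adjusted DESeq2 p-values gave 0 in each. *P2rx1*, an ATP channel, fell after AC in B6 by 1.15 (SE 0.24, adjusted p = 0.000757, edgeR) and was at 2.57 ± 0.0910 and 2.63 ± 0.0703 CPM in control and AC SjSS.

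Likeness of pattern was measured as the root mean square (RMS) difference of log2 CPM, centred per gene, over all 18 samples, where a smaller value means a closer pattern. Among the receptors themselves *P2rx7* and *P2ry6* were closest (0.277) and *P2ry12* and *Adora2a* farthest (2.88). *P2ry12* and *P2ry13* were at 0.481, and *P2ry13* and *P2ry14* at 0.759. Of all genes tested, *Abhd15* (0.342), *Fndc10* (0.376) and *Nxpe5* (0.381) came closest to *P2ry12*, and *Rhoh* (0.389), *Chn2* (0.394) and *Slc14a1* (0.427) to *P2ry13*. *Cdc42ep2* (0.365), *Slco3a1* (0.367) and *Bcl2a1a* (0.392) came closest to *Adora2a*, and *Ets1* (0.375), *Bcl3* (0.382) and *Pid1* (0.384) to *Adora2b*. *Ldlrad3* (0.374), *Mvd* (0.424) and *Fgd4* (0.425) came closest to *Adora3*. *Bcl2a1a* belongs to a family of near-identical copies, so its counts are uncertain.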

How the data were processed

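RNA was sequenced from 18 BMDM samples in 6 groups of 3, which were assigned from the sample labels. The authors aligned paired-end reads to mm10 with STAR in Partek Flow and quantified genes with an expectation-maximisation tool. The deposited table holds these estimated counts, of which 41.1% were not whole (tolerance 1e-06), without normalisation. The counts are split by the authors' model where genes overlap, and the use of strand is not given in the sources used here, so antisense reads cannot be told apart. All columns were mapped to a sample.

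The estimated counts were rounded and tested with edgeR 4.0.16 (R 4.3.3) by its quasi-likelihood test over all 18 samples, with filterByExpr, TMM factors and Benjamini-Hochberg adjustment over 15789 genes. The 9 comparisons were the AC and CpG responses of each strain, the strain difference in each condition and the differences of the responses between strains. Levels are CPM on TMM-scaled totals, and 95% intervals are 1.96 SE on each side. Adjusted p under 0.05 was the threshold, with a log2 fold change of 1.3, the limit in the study's methods, as a stricter rule. A figure legend of the study gives a fold change of 1.3, without log2. DESeq2 1.42.0 was an alternative, while the study used DESeq2 (version 3.13 as listed by the submitters) as its test. The test was checked on simulated counts. Totals of 30688288 to 57139640 limit precision for genes near 1 CPM. Replicates differed by more than sampling noise in every group.

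The members, the gene lists and the rule for named genes were chosen with earlier results of these data known. Named genes were taken from the 10 receptors, list members past both thresholds in a comparison, the largest increase and decrease of each list whether or not past them, genes overlapping a receptor, and the 3 tested genes with the smallest RMS difference (log2 CPM with a prior count of 2) to each receptor past 1.3 in a treatment response. Not every list member past both thresholds is named. Equal replicate numbers were checked for pairing by the correlation of same-numbered deviations from the group means. It was over 0.1 in all 3 pairs for the CpG response in B6 (0.137 to 0.264) and in no other comparison, so the block is given beside that result. Whether equally numbered samples came from the same mouse is not given in the sources used here. Not in the table under the listed symbols were *P2rx2*, *P2ry4*, *Adora1*, *Calhm6*, *Entpd8*, *Slc29a4* and *Slc28a3*, and *Acp3* was listed as *Acpp*. Not tested for low counts were *P2rx3*, *P2ry10*, *Panx2*, *Entpd2*, *Entpd3*, *Enpp3* and *Areg*. Other settings were no filter, 10 counts in 3 samples, DESeq2 size factors, only the groups compared, replicate blocks and leaving out each sample.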

Additional observations from a re-analysis of the deposited data

Results flagged for a closer look

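The AC response of 7 receptors differed between SjSS and B6 in a test of the difference itself (the quasi-likelihood test of edgeR with p-values adjusted by Benjamini-Hochberg, 3 samples per group). Of all genes tested, 19.6% had a higher and 18.3% a lower AC response in SjSS. On the log2 scale, as SjSS minus B6, the difference was 2.33 for *P2ry13*, 1.64 for *P2ry14*, 1.47 for *Adora2a*, 1.41 for *P2ry12*, 0.73 for *Adora2b*, 0.32 for *P2rx4* and -0.28 for *P2ry6*. For *P2ry13* and *P2ry14* all AC samples lay above their controls in SjSS and below them in B6 on the TMM-scaled levels. The rises of *P2ry13* and *P2rx4* in SjSS and the difference for *P2rx4* rest on that scaling. The CpG response differed for *Adora2b*, by 0.96, where 3.23% of all genes were higher and 2.62% lower. Both *Adora2b* differences had adjusted p-values near the threshold (0.0442 and 0.0414) and were lost in 12 of 18 fits that left out 1 sample.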

How the results depend on the processing

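Over 2220 recomputed log2 fold changes of the receptors, 2149 kept their direction and side of the threshold, 50 no longer passed, 11 passed in addition and 10 changed sign. Of the 2149, 1563 came from fits that left out 1 sample. That sample was often outside the groups compared, where the fold change could hardly move, so the total overstates how firm the results are. All 10 sign changes concerned values that did not pass. In the control strain difference *P2ry6* turned to 0.0029 in a fit of the control samples alone and ran from -0.047 to 0.023 when 1 sample was left out, and *Adora3* from -0.34 to 0.16. Leaving out 1 sample also gave -0.011 to 0.53 for *Adora3* in the AC strain difference, -0.078 to 0.053 for *P2rx4* and -0.15 to 0.069 for *P2ry12* in the CpG strain difference, and -0.032 to 0.19 for *P2ry12* in the difference of CpG responses. The filters changed no call, and the replicate blocks changed no call but that of *P2rx4* after CpG in B6. In the other comparisons same-numbered samples were not all correlated over 0.1, and whether they share a mouse is not given in the sources used here.

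With a log2 fold change over 1.3 required, receptors that rose and fell numbered 1 and 3 after AC in B6, 1 and 1 after AC in SjSS, 1 and 2 after CpG in B6, and 2 and 2 after CpG in SjSS. Of all genes, 4.47%, 12.9%, 12.7% and 9.26% passed this limit in either direction in these comparisons. In the difference of AC responses 4 receptors were higher and 0 lower, where 7.53% of all genes passed in either direction. By the same rule 0 were higher and 1 lower in control SjSS, and 2 were higher and 0 lower after AC. After CpG 0 were higher and 0 lower, as in the difference of CpG responses. For the strain differences and the difference of CpG responses no share of all genes was computed at this limit. The list members passing in at least 1 of the 9 comparisons went from 7 to 2 of 7 tested for ATP release, from 13 to 6 of 14 for ectonucleotidases, from 8 to 3 of 8 for adenosine handling, from 9 to 5 of 9 for P2X7 effectors, from 13 to 8 of 13 for cAMP-responsive genes and from 12 to 3 of 12 for G proteins and cyclases, as all genes went from 85.4% to 25.3%. In fits of only the groups compared, 2 receptors rose after AC in B6, 2 fell in control SjSS and 0 differed upward in the CpG response, where DESeq2 size factors also gave 0, and DESeq2 gave 1 downward.

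Leaving out each sample gave 1 to 2 receptors that rose and 5 to 6 that fell after AC in B6, 4 to 5 and 4 after AC in SjSS, 3 and 5 to 6 after CpG in B6, and 3 and 5 after CpG in SjSS. The strain differences ranged over 0 higher and 2 to 5 lower in control, 4 and 3 after AC, and 2 and 3 to 5 after CpG. The differences of responses ranged over 5 to 6 higher and 0 to 1 lower for AC, and 0 to 1 each way for CpG. The nearest genes by pattern depended on the scale: none of the 3 was shared for any receptor once patterns were scaled to equal spread (0 of 3 each). DESeq2 size factors moved the median of all genes by at most 0.028, and totals without any such factor were not tried. Depth limits *Adora3* (54 to 205 counts per group) most.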
